A study of Rattus norvegicus with 8 samples.

Results

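A set of 9 genes of the apoptotic machinery was followed in laser-captured rat liver cells: the initiator caspases Casp8 and Casp9, the anti-apoptotic proteins Bcl2, Bcl2l1 (BCL-XL) and Mcl1, the BH3-only proteins Bcl2l11 (BIM), Bid and Bbc3 (PUMA), and the effector Bax. They were taken by name from the gene column of the array, which gave 18 probes on 20 spots for these 9 genes, out of 45598 probes for 27110 named genes. RNA of each sample was hybridised to a 1-colour Agilent rat expression array, and 8 samples in 3 groups were compared. The purpose of the comparison was to describe small hepatocyte-like progenitor cells (SHPCs), the clusters of small hepatocytic cells that expand when mature hepatocytes are kept from dividing, with and without a transplant of bone marrow-derived mesenchymal cells (BM-MCs).

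All 3 groups came from F344 rats whose livers had received retrorsine, an alkaloid that blocks hepatocyte division, and partial hepatectomy. The first group was 2 samples of mature hepatocytes (MHs) cut from recipient livers that served as controls. The second was 3 samples of SHPC clusters from such control livers, called control SHPCs here. The last was 3 samples of SHPC clusters from livers that had received BM-MCs from a male F344 rat, called SHPCs with BM-MCs here. The labels describe the animals as DPPIV+, whereas the methods give the recipients as DPPIV- females and the donors as DPPIV+, and the labels give neither age nor time. Regions were chosen by their morphology on stained sections. Which animal each sample came from is not given, so some samples may share one, the p-values then measure only the spread between these samples, and they are too small if animals were shared. In such captured cells, fewer cells of a type and less RNA per cell cannot be told apart.

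Apoptosis in hepatocytes starts by a pair of routes that meet at the mitochondrion. In the extrinsic route a death receptor such as FAS activates caspase 8, which in hepatocytes also cleaves BID, and truncated BID then carries the signal to mitochondria. In the intrinsic route BH3-only proteins such as BIM and PUMA bind and occupy BCL2, BCL-XL and MCL1, which otherwise restrain BAX and BAK. Once BAX and BAK open the outer membrane, cytochrome c leaves the mitochondrion and caspase 9 is activated. BCL-XL and MCL1 are known to be needed for hepatocyte survival. Most of this control acts on proteins, by cleavage, binding and turnover, which arrays of mRNA do not measure.

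Values are given as log2 of a probe's processed signal over the 75th percentile of that array, so that a value of 0 marks that percentile, and a difference of 1 is a doubling. They serve to compare samples for 1 probe and not to rank genes. Of the 18 probes, 13 passed the filter on dim probes, a mark above background on 3 or more of the 7 arrays whose marks are complete, and were tested, and every gene kept at least 1 tested probe. Each gene is given by its brightest tested probe, and the other probes are given beside it. Differences were tested with limma over 23111 probes, with Benjamini-Hochberg adjustment over all of them.

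No member passed an adjusted p of 0.05 in any comparison. For SHPCs with BM-MCs against control SHPCs this was 0 of 9 genes, where 0.0275% of all 14536 genes passed. For MHs against control SHPCs it was 0 of 9, where 1.22% of all genes passed, and for SHPCs with BM-MCs against MHs it was 0 of 9, where 0.406% passed. At an unadjusted p under 0.05, limma gave 1 member in the first comparison (Casp8, against 16.2% of all genes), 2 in the second (Bcl2 and Bcl2l1, against 20.3%) and 2 in the third (Bcl2 and Bcl2l11, against 13.5%). Over the limma alternatives these counts ran from 0 to 1, from 1 to 2 and from 0 to 2, and the genes changed. In the first comparison Casp8 was no longer under 0.05 with median scaling, without scaling, with quantile normalization, with normexp background correction, or without control SHPC 2, SHPC with BM-MCs 1 or SHPC with BM-MCs 2. A block for slide set put Casp8 at a limma unadjusted p of 0.14 and Casp9 at 0.0260, and quantile normalization put Bcl2 at 0.0439. The F test over the 3 groups passed for 0 of 9 members after adjustment, where 0.97% of all genes passed, and for 1 (Bcl2) before it, where 19.8% did. The values of 1 group lay wholly apart from those of the other for 1 of 9 members in the first comparison (24.6% of all genes), 5 in the second (42.4%) and 4 in the third (32.9%). The median log2 difference of the 9 members was 0.07, 0.12 and 0.05 in the 3 comparisons, beside 0.02, 0.06 and -0.02 for all genes. The median size of the difference, without its sign, was 0.11, 0.24 and 0.33, beside 0.19, 0.23 and 0.20. The 3 comparisons share samples with each other. In data simulated for the first comparison, with its sample numbers and spreads taken from all 3 groups, 39% of probes changed 2-fold were called. Of those changed 4-fold, 86% were. These shares are over probes of every spread and not over the members. The 95% intervals of the members in this comparison lay within -0.49 to 0.69, except that of Bcl2l1, at -0.58 to 1.08. Only the interval of Bcl2l1 reached a 2-fold change.

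**Figure D1:**
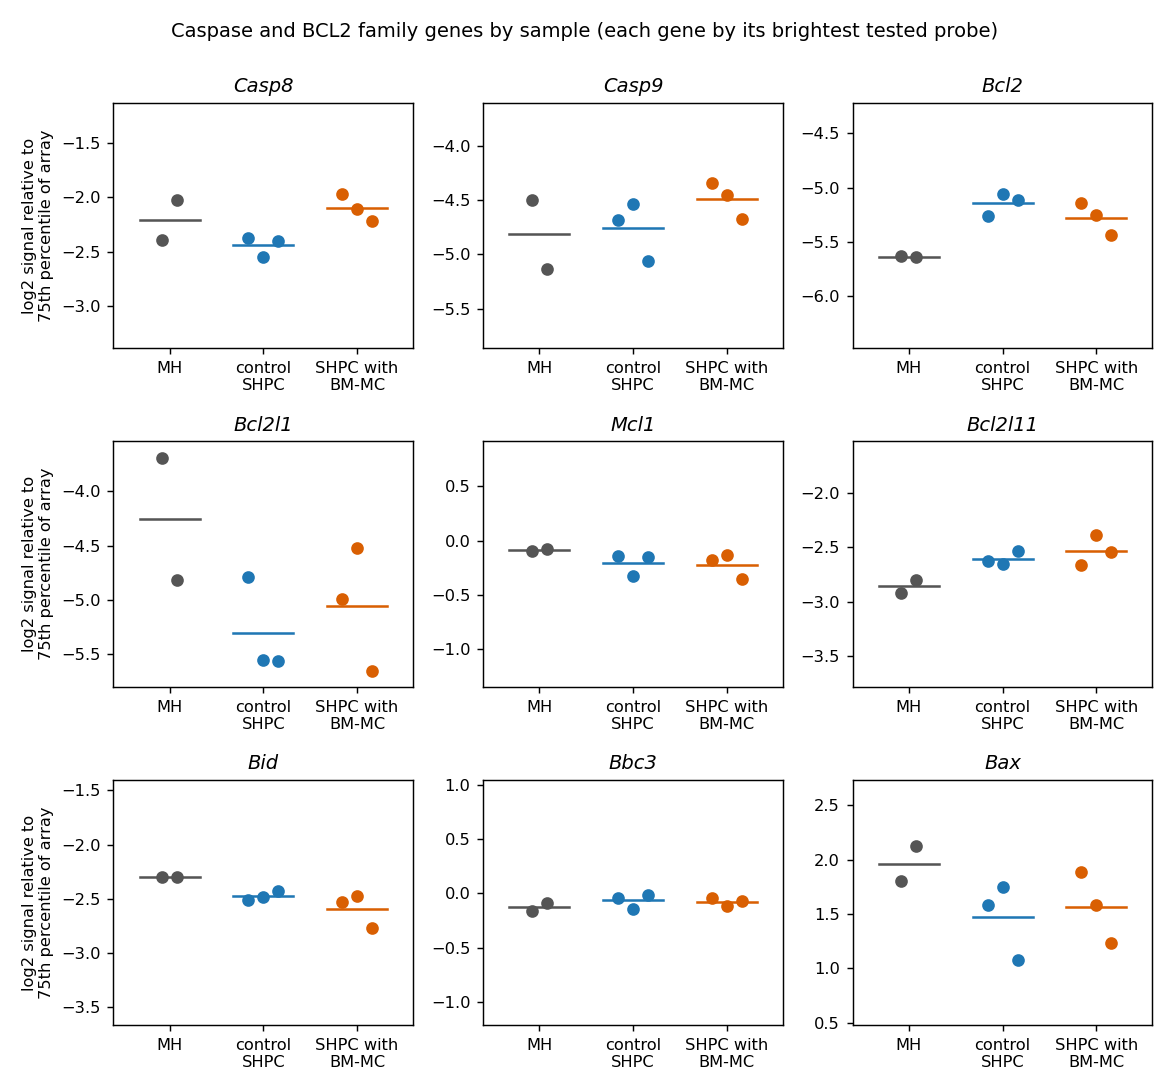
Log2 signal relative to the 75th percentile of the array (y axis, every panel the same height in log2 units) of the 9 genes in MHs, control SHPCs and SHPCs with BM-MCs (x axis). Points are samples and lines are group means; the widest range of group means is that of Bcl2l1, at 1.05, and the narrowest is that of Bbc3, at 0.06.

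Casp8, the initiator caspase of the death receptors, was read at -1.97, -2.11 and -2.22 in the 3 samples of SHPCs with BM-MCs and at -2.37, -2.55 and -2.40 in control SHPCs. MHs were at -2.39 and -2.02. All 3 samples with BM-MCs lay above all control SHPCs, and the MHs spanned both. Samples with BM-MCs exceeded control SHPCs by 0.34 on the log2 scale, with a 95% interval of 0.05 to 0.63, a limma unadjusted p of 0.0265 and an adjusted p of 0.258. By their brightest probes, it was the 1 of 9 members whose values were apart in this comparison, where 24.6% of all genes were. The other probe of Casp8 shares 33 of its 60 bases with the first and ran with it over the 8 samples (Pearson r = 0.92, a description only). It gave a difference of 0.24 (limma adjusted p = 0.344), again with all 3 samples above the controls. Scaling each array to its median, which lowers every log2 difference of this comparison by 0.19, left 0.15 for Casp8. For MHs the difference from control SHPCs was 0.24 (interval -0.12 to 0.60), which became 0.42 without MH 1 and 0.05 without MH 2. That of SHPCs with BM-MCs from MHs was 0.10 (interval -0.25 to 0.46), and it was -0.09 when arrays were scaled to their medians. In order of level, SHPCs with BM-MCs came first, MHs next and control SHPCs last, and MHs overlapped with both neighbours.

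Casp9, the initiator caspase of the mitochondrial route, was at -4.34, -4.45 and -4.67 in SHPCs with BM-MCs. Control SHPCs were at -4.68, -4.54 and -5.06, and MHs at -4.50 and -5.13. The 3 groups overlapped. The difference of samples with BM-MCs from control SHPCs was 0.27 (interval -0.15 to 0.69, limma adjusted p = 0.462), and within the slide set that holds control SHPC 3 and the samples with BM-MCs it was 0.57. It was 0.12 without control SHPC 3, and 0.08 both with median scaling and with quantile normalization. MHs differed from control SHPCs by -0.06 (interval -0.61 to 0.49), which became 0.26 without MH 2 and 0.06 without control SHPC 2. Samples with BM-MCs differed from MHs by 0.33 (interval -0.22 to 0.88), which became 0.01 without MH 2, 0.64 without MH 1, 0.13 with median scaling and 0.78 in a fit with a block for slide set. The other Casp9 probe was not well above background on any array and was not tested.

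Among the anti-apoptotic members, Bcl2 had the lowest p of any member in any comparison. It was at -5.63 and -5.64 in MHs. Control SHPCs were at -5.26, -5.06 and -5.11, and SHPCs with BM-MCs at -5.14, -5.25 and -5.44. Both MHs lay below all 6 SHPC samples, and the SHPC groups overlapped. MHs differed from control SHPCs by -0.49 (interval -0.80 to -0.18, limma unadjusted p = 0.00664, adjusted p = 0.136). The difference was -0.48 within the slide set that holds both groups, where 2 control SHPCs remain. SHPCs with BM-MCs differed from MHs by 0.36 (interval 0.05 to 0.67, limma adjusted p = 0.337) and from control SHPCs by -0.13 (interval -0.44 to 0.17), the latter -0.32 when arrays were scaled to their medians, -0.05 without SHPC with BM-MCs 3 and -0.20 without SHPC with BM-MCs 1. The probe was above background on all 7 arrays with complete marks, but the signals were dim, from 30.1 to 52.3 units, where the lowest spots marked above background read 21.1 to 30.1 units. Normexp background correction with quantile normalization, which adds 50 units to every signal and leaves out control SHPC 2, left the difference of MHs from control SHPCs at -0.10 and that of SHPCs with BM-MCs from MHs at 0.01.

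Bcl2l1 encodes BCL-XL, which shields mitochondria against BAX, and has 4 probes on the array. The brightest probe read -3.69 and -4.82 in MHs. It read -4.79, -5.55 and -5.56 in control SHPCs, and -4.99, -4.52 and -5.65 in SHPCs with BM-MCs. Only MH 1 stood above all other samples, and the other MH lay among the SHPCs. The difference of MHs from control SHPCs was 1.05 (interval 0.01 to 2.09, limma unadjusted p = 0.0489, adjusted p = 0.258), and it was 0.49 without MH 1 and 1.61 without MH 2. By the mean of the tested probes it was 0.37, and with normexp 0.47. Samples with BM-MCs differed from MHs by -0.80 (interval -1.84 to 0.24) and from control SHPCs by 0.25 (interval -0.58 to 1.08), the latter 0.51 within the slide set of control SHPC 3 and the samples with BM-MCs, -0.02 without SHPC with BM-MCs 2 and -0.01 with normexp. The difference from MHs was -0.24 without MH 1, -1.36 without MH 2 and -0.29 by the mean of the tested probes. This probe was not well above background on control SHPC 3 and on SHPC with BM-MCs 3. The second tested probe gave a difference of -0.30 between MHs and control SHPCs (interval -1.26 to 0.65), the opposite sign, and one of -0.08 between SHPCs with BM-MCs and controls.

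The array holds the second probe, A_64_P054730, under another name as well, A_44_P1085814, with the same 60 bases, which gives a pair of readings of 1 sequence on every array. The brightest probe is given whole and the shared one by its first 30 bases, all 5′ to 3′. The file places the former on chr3:143178503-143178562 and the latter on chr3:143176523-143176582, both on the minus strand, in a genome build not given in the sources used here.
Bcl2l1 A_44_P548065: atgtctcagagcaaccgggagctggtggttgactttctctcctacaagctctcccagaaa
Bcl2l1 A_64_P054730 and A_44_P1085814, first 30 bases: gttggtttgtgctgtgacctcttctattca
The paired readings differed by 0.29 to 1.43 on the log2 scale in each array. One was above background on 3 of 7 arrays (MH 1, control SHPC 3 and SHPC with BM-MCs 2) and was tested, and the other on 1, MH 2, and was not. The pair was never above background on the same array, so these differences include at least 1 reading within background every time. The fourth probe of Bcl2l1 was not well above background on any array with complete marks.

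**Figure D2:**
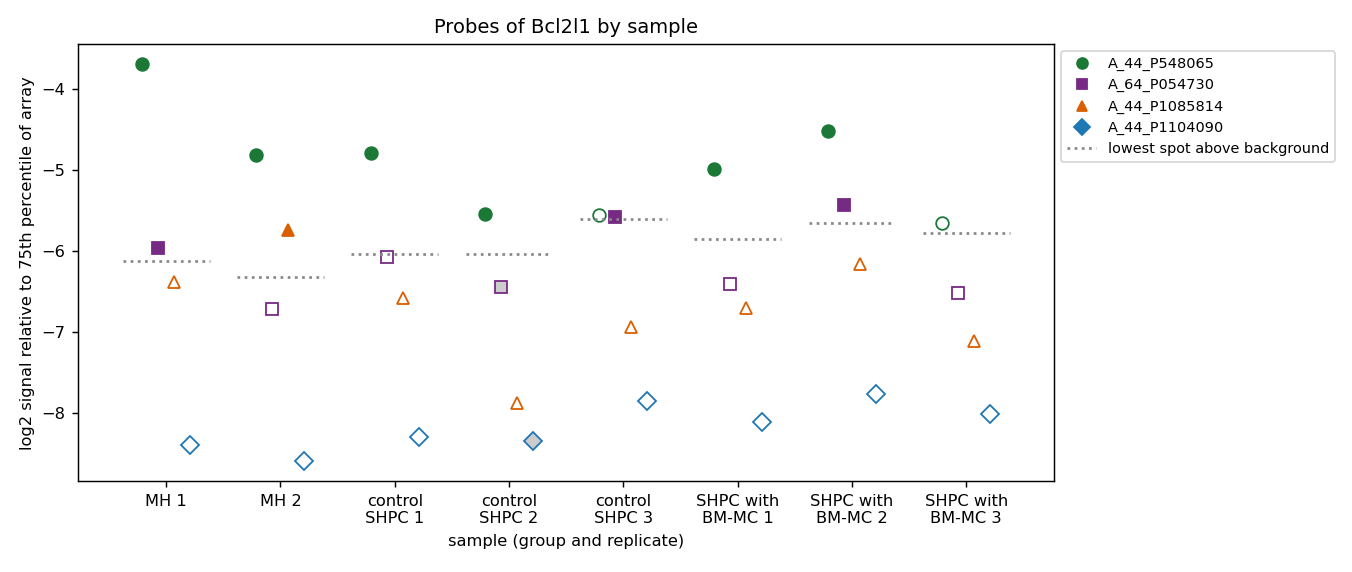
Log2 signal relative to the 75th percentile of the array (y axis) of the 4 Bcl2l1 probes in the 8 samples (x axis). Filled points were well above background, open points were not, grey points have no mark, and dotted lines are the lowest spot above background on each array; the squares and triangles are probes of the same sequence and differ by 0.29 to 1.43.

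Mcl1, a short-lived anti-apoptotic protein that hepatocytes depend on, had a narrow range. It was at -0.09 and -0.08 in MHs. Control SHPCs were at -0.14, -0.32 and -0.15, and SHPCs with BM-MCs at -0.18, -0.13 and -0.35. Both MHs lay above every SHPC sample by a narrow margin. The difference of MHs from control SHPCs was 0.12 (interval -0.18 to 0.41), that of SHPCs with BM-MCs from MHs -0.14 (interval -0.43 to 0.15) and that of SHPCs with BM-MCs from control SHPCs -0.02 (interval -0.31 to 0.26). The other probe disagreed with the first in MHs, where it was -0.15 from control SHPCs with both MHs lower. In SHPCs with BM-MCs it was at -0.93, -1.02 and -1.06, below the -0.79, -0.85 and -0.72 of control SHPCs in every sample, a difference of -0.21 (interval -0.47 to 0.04, limma adjusted p = 0.354). The readings of the 2 Mcl1 probes had a Pearson r of 0.23 over the 8 samples, a description only.

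Bcl2l11 encodes BIM, the BH3-only protein that binds all the anti-apoptotic members. Its brightest probe read -2.92 and -2.80 in MHs. Control SHPCs were at -2.63, -2.65 and -2.53, and SHPCs with BM-MCs at -2.66, -2.39 and -2.54. Both MHs lay below all 6 SHPC samples. MHs differed from control SHPCs by -0.26 (interval -0.55 to 0.04, limma adjusted p = 0.316). SHPCs with BM-MCs differed from MHs by 0.33 (interval 0.03 to 0.63, limma unadjusted p = 0.0339, adjusted p = 0.346) and from control SHPCs by 0.07 (interval -0.21 to 0.36). The last of these was -0.12 when arrays were scaled to their medians. Against MHs that scaling lowers every difference of SHPCs with BM-MCs by 0.20, which left 0.13 for Bcl2l11 (limma unadjusted p = 0.349) and 0.16 for Bcl2 (limma unadjusted p = 0.312).

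The other 2 probes of Bcl2l11 lie next to each other, at chr3:115722606-115722665 and chr3:115722642-115722701 on the plus strand, and the brighter probe at chr3:115726565-115726624, in a build not given in the sources used here. They are shown 5′ to 3′ because they overlap by 24 bases, in capitals, and because both were well above background on 1 array only, that of SHPC with BM-MCs 3.
Bcl2l11 A_44_P508055: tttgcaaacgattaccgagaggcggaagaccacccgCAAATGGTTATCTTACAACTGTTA
Bcl2l11 A_44_P1088291: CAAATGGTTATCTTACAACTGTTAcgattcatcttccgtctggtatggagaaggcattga
On that array the first read -2.98 and the second -4.30. On the other 7 arrays the first read -8.14 to -7.19, and the second -8.52 to -5.56, none well above background. The second also read -6.81 and -5.56 in the other 2 samples with BM-MCs, above the -7.78 of the highest control SHPC, though within background. The brighter probe, listed for a transcript that the first of the pair also covers, did not stand apart on that array, with -2.54 against a highest reading of -2.39. Because of the filter on dim probes neither entered the tests, and no fold is given, since 1 of 3 samples with BM-MCs and 0 of 3 control SHPCs were measured. Such single-array readings were common: 725 of 45598 probes were above background on SHPC with BM-MCs 3 alone, and 311 to 803 on each array with complete marks. Of the 725, 373 stood at least 2 log2 units above every other array, as did the first probe of the pair but not the second, and the other arrays with complete marks held 69 to 294 such probes. The part of that array in the readings was not tested.

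**Figure D3:**
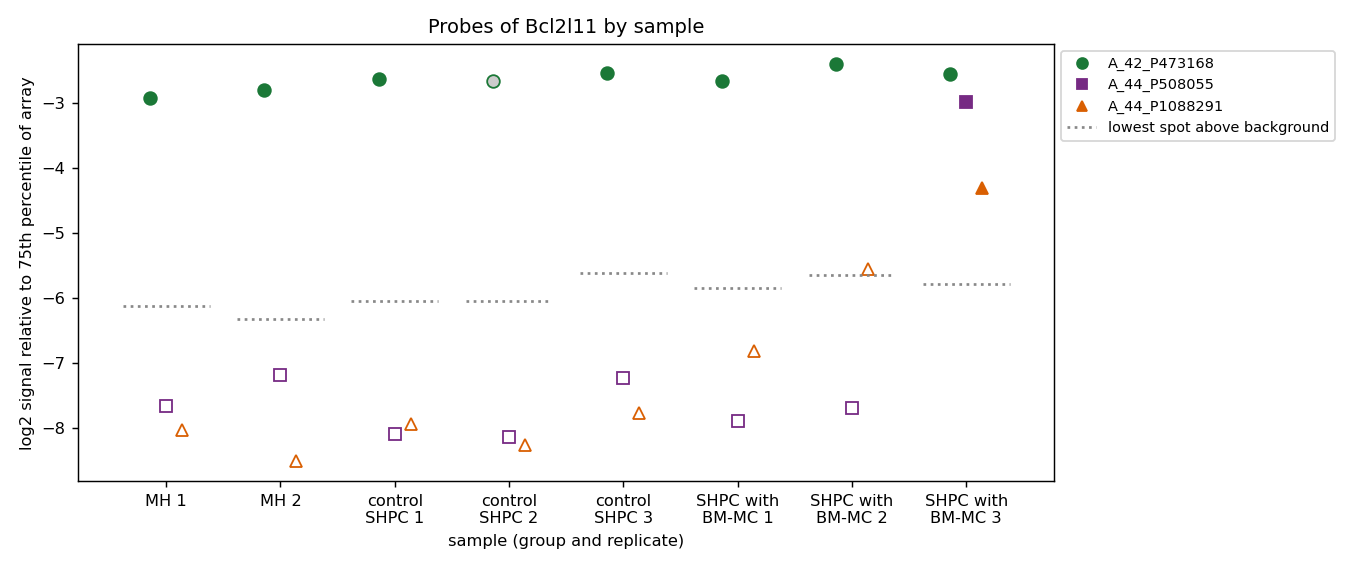
Log2 signal relative to the 75th percentile of the array (y axis) of the 3 Bcl2l11 probes in the 8 samples (x axis). Filled points were well above background, open points were not, the grey point has no mark, and dotted lines are the lowest spot above background on each array; the 2 dim probes reach -2.98 and -4.30 on SHPC with BM-MCs 3 only, while the brighter one stays between -2.92 and -2.39.

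Bid, the BH3-only protein that caspase 8 cleaves, was at -2.30 in both MHs. Control SHPCs were at -2.51, -2.48 and -2.43, and SHPCs with BM-MCs at -2.53, -2.47 and -2.77. Both MHs lay above all 6 SHPC samples, the SHPC groups overlapped, and the order of levels was MHs, control SHPCs, SHPCs with BM-MCs. The MHs were 0.17 above control SHPCs (interval -0.12 to 0.47, limma adjusted p = 0.481). Samples with BM-MCs were at -0.29 from MHs (interval -0.59 to 0.01, limma adjusted p = 0.387) and at -0.11 from control SHPCs (interval -0.41 to 0.18), the latter -0.30 with median scaling and -0.02 without SHPC with BM-MCs 3. With median scaling the difference from MHs was -0.49 (limma unadjusted p = 0.0091, adjusted p = 0.186), and that of Mcl1 was -0.33 (limma unadjusted p = 0.0453, adjusted p = 0.237), so the members under an unadjusted p of 0.05 in this comparison were others than with the 75th percentile.

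Bbc3, which encodes the p53 target PUMA, had the narrowest range of group means of the 9 genes. Its values ran from -0.16 in MH 1 to -0.01 in control SHPC 3, and all groups overlapped. The difference of SHPCs with BM-MCs from control SHPCs was -0.01 with an interval of -0.26 to 0.23, and -0.20 with median scaling. MHs differed from control SHPCs by -0.06 (interval -0.32 to 0.19), and SHPCs with BM-MCs from MHs by 0.05 (interval -0.20 to 0.31). The range of its group means, 0.06, lay at the 2.96th percentile of all genes tested, whereas that of Bcl2l1 lay at the 91.9th, that of Bax at the 70.1st and that of Bcl2 at the 69.8th.

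Bax, the effector that permeabilises the outer mitochondrial membrane, was at 1.80 and 2.13 in MHs. Control SHPCs were at 1.58, 1.75 and 1.08, and SHPCs with BM-MCs at 1.89, 1.58 and 1.23. On this brightest probe both MHs lay above all control SHPCs, 1 sample with BM-MCs lay between the MHs, and control SHPC 3 was lowest. MHs differed from control SHPCs by 0.50 (interval -0.11 to 1.11, limma adjusted p = 0.340), and by 0.30 within the slide set that holds both groups. SHPCs with BM-MCs differed from MHs by -0.40 (interval -1.02 to 0.21), which became 0.18 in a fit with a block for slide set, -0.24 without MH 2 or without SHPC with BM-MCs 3, and -0.60 with median scaling, and from control SHPCs by 0.09 (interval -0.49 to 0.67). The last value was -0.10 without control SHPC 3 and 0.48 within the slide set of control SHPC 3 and the samples with BM-MCs. Repeat readings lay close together. Each Bax probe was spotted 2 times, and the 2 spots differed on any array by at most 0.0522 for the brightest and 0.132 for the other. The other Bax probe ran with the brightest at a Pearson r of 0.96 over the 8 samples, a description only. On that other probe MHs differed from control SHPCs by 0.45 (limma adjusted p = 0.422) and the groups overlapped, with MH 1 at 1.12 below control SHPCs 1 and 2 at 1.14 and 1.25.
That brightest probe lies at chr1:95933023-95933082 in the file, on the minus strand, and is shown 5′ to 3′ because its repeat spots lay so close.
Bax A_44_P1164081: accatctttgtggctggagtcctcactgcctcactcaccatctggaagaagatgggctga

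Markers of other liver cells differed between the samples as well. The summed level of 6 Kupffer cell and macrophage markers, in multiples of the 75th percentile and all 6 above background on all 7 arrays, was 42.2 to 49.6 in MHs, 23.4 to 34.3 in control SHPCs and 29.7 to 42.6 in SHPCs with BM-MCs. Clec4f carried most of it, and Adgre1, Marco and Vsig4 overlapped between MHs and control SHPCs. The lowest sum was in control SHPC 3, the sample with the lowest Bax. The summed level of 6 stellate cell markers was 3.50 to 3.57 in MHs, 2.13 to 2.40 in control SHPCs and 2.10 to 3.50 in SHPCs with BM-MCs. Its members did not move together: Lrat and Reln were higher in both MHs than in every control SHPC, whereas Col1a1 and Pdgfrb were lower. Hepatocyte markers were 7 of 7 above background on all 7 arrays, with sums of 520 to 556 in MHs, 551 to 672 in control SHPCs and 497 to 627 in SHPCs with BM-MCs. The highest hepatocyte sum, 672, was also in control SHPC 3. The cholangiocyte and ductular sum, with 2 of 5 markers above background on all 7 arrays, was 0.286 to 0.355 in MHs, 0.418 to 0.462 in control SHPCs and 0.421 to 0.545 in SHPCs with BM-MCs. That of 4 sinusoidal endothelial markers was 11.4 to 14.0, 10.2 to 12.0 and 12.2 to 13.3 in the same order. The part of any of these sums in the Bax values was not tested. Of the blood cell markers, 3 of 5 for granulocytes, 3 of 5 for lymphocytes and 3 of 4 for erythroid cells were above background on all 7 arrays, whereas Mpo, Ngp and Cd3e were on none. The summed level of the granulocyte markers, carried by S100a8 and S100a9, was 0.406 and 1.51 in MHs, 1.15 to 1.59 in control SHPCs and 0.378 to 0.499 in SHPCs with BM-MCs. That of the lymphocyte markers was 0.719 to 1.07 and that of the erythroid markers 0.279 to 0.648 over all samples. The part of these cells in the member values was not tested.

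**Figure D4:**
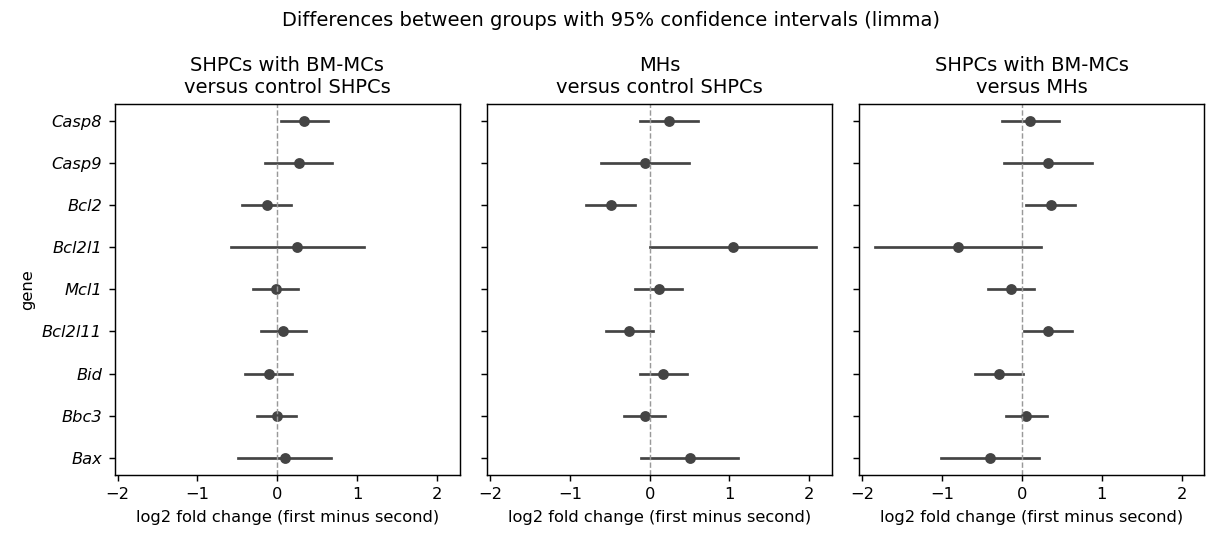
Log2 fold change (x axis) of each of the 9 genes (y axis) in the 3 comparisons, the first group named minus the second. Points are limma estimates and bars are 95% intervals; the bar misses 0 for Casp8 in the first panel, for Bcl2 and Bcl2l1 in the second, and for Bcl2 and Bcl2l11 in the third, and none of these passed after adjustment.

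By the likeness of their pattern over the 8 samples, the 3 genes closest to Bcl2l1 were LOC684529 (Pearson r = 0.974), Dusp22 (0.972) and Nacc2 (0.970) among 14434 genes. Those closest to Bax were Ttc41 (0.991), Ms4a6bl1 (0.979) and Ckb (0.974). These genes were picked for the likeness, and the values are a description over samples of 3 groups that share a slide.

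The other genes of the pathway were given by a list of 42 genes, of which 39 were tested, and Casp14, Pmaip1 and Fadd were not. After adjustment 0 of 39 passed in each comparison. At a limma unadjusted p under 0.05 the list held 2 genes that were higher and 1 that was lower in the first comparison (SHPCs with BM-MCs against control SHPCs), 5 and 3 in the second (MHs against control SHPCs), and 4 and 2 in the last. These counts moved with the processing. Over the limma alternatives their totals ran from 1 to 5, from 5 to 11 and from 2 to 10. The last, 6, was 10 with median scaling and 2 without scaling, with a block for slide set, or without SHPC with BM-MCs 3, and the first, 3, was 5 with median scaling and 1 without SHPC with BM-MCs 1. The shares of all genes at that threshold, in the same order of higher and lower, were 10.3% and 5.85%, 12.5% and 7.72%, and 6.80% and 6.72%. The median log2 difference of the list was 0.04, 0.18 and -0.05, beside 0.02, 0.06 and -0.02 for all genes.

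In SHPCs with BM-MCs against control SHPCs, the lowest p belonged to Dffb, the nuclease that cuts DNA during apoptosis (limma adjusted p = 0.170). It was at -5.11, -5.07 and -5.25 in SHPCs with BM-MCs, above background on all 3 arrays, and at -6.97, -6.35 and -5.77 in control SHPCs, not well above background on any. The samples with BM-MCs were all higher. Taking control SHPCs at the lowest reading above background of each array, Dffb was at least 1.68-fold higher in SHPCs with BM-MCs. It passed the filter through the other groups, so its p sets measured levels against readings within background and supports no more than that bound. The next were Bad, a BH3-only protein, at -0.28, Ripk1, a kinase that binds death receptor complexes, at 0.27 and the caspase inhibitor Xiap at -0.26, each with groups apart and limma adjusted p of 0.273, 0.277 and 0.303. The probes did not settle a direction for Xiap, since the other 4 of its 5 tested probes were higher in SHPCs with BM-MCs, nor for Bad, where 1 of 3 was higher.

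In MHs against control SHPCs, the death receptor Fas differed by 0.57 and Tradd, an adaptor of the TNF receptor, by 0.40, with both MHs higher (limma adjusted p = 0.118 and 0.149). Birc5, or survivin, which also serves in cell division, differed by -2.06 (limma adjusted p = 0.126). It was at -3.70 and -4.55 in MHs and at -2.07, -1.75 and -2.37 in control SHPCs. The summed level of 8 proliferation markers was 1.67 to 2.36 in MHs, 8.69 to 14.5 in control SHPCs and 4.65 to 7.43 in SHPCs with BM-MCs, and its part in the Birc5 values was not tested.

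In SHPCs with BM-MCs against MHs, the lowest p belonged to Cflar, the inhibitor that binds caspase 8 at death receptors, with a difference of 0.49 (limma adjusted p = 0.272). It was at -3.10, -3.01 and -2.98 in SHPCs with BM-MCs and at -3.44 and -3.59 in MHs, while control SHPCs, at -3.44, -3.21 and -3.11, lay below all samples with BM-MCs and overlapped with the MHs. Hrk, a BH3-only protein, differed by -1.14 and Birc5 by 1.52, with groups apart and limma adjusted p of 0.309 and 0.319. Hrk was at -2.37 in MH 1 but at -3.39 in MH 2, which lay among control SHPCs, at -3.34, -3.29 and -4.20. Samples with BM-MCs were at -3.83, -3.91 and -4.34. Birc5 was at -3.53, -1.64 and -2.65 in SHPCs with BM-MCs, the first of them close to the -3.70 of MH 1. These groups never share a slide set, so position on the slide and group cannot be told apart in this comparison other than through the control SHPCs.

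**Figure D5:**
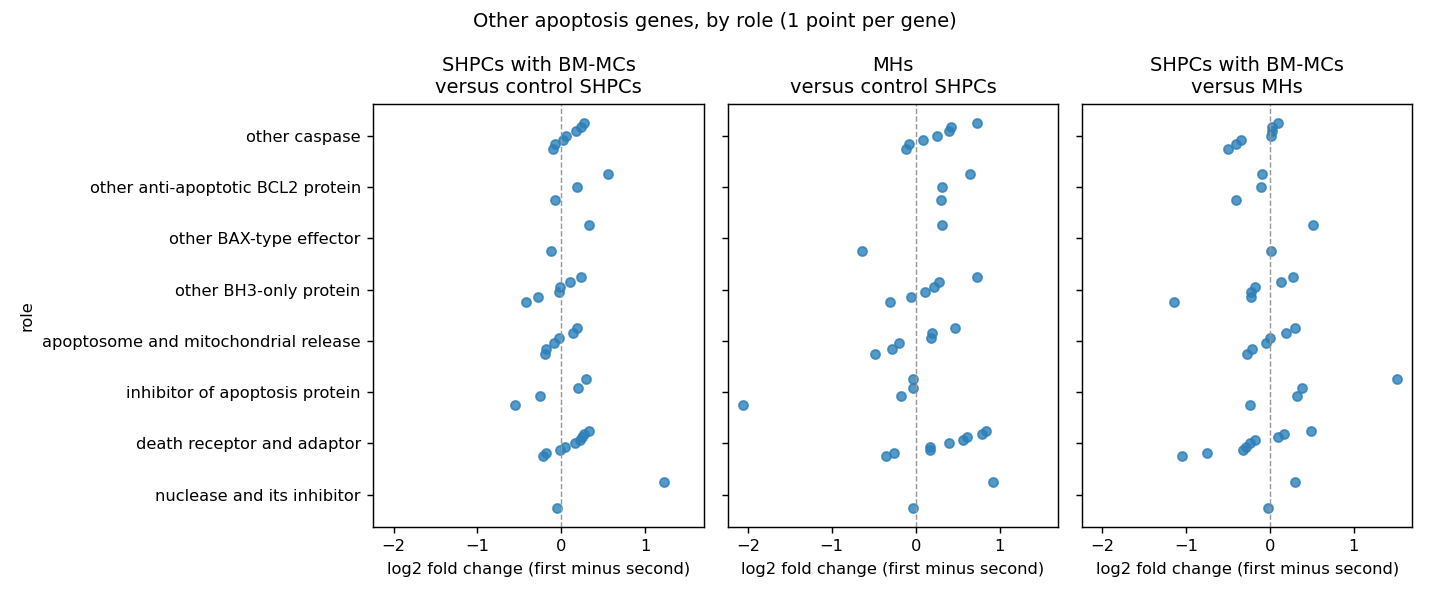
Log2 fold change (x axis) of the 39 tested genes of the wider apoptosis list, by role (y axis), in the 3 comparisons. Each point is a gene by its brightest tested probe; Dffb in the first panel, at 1.22 against control readings below background, and Birc5 in the other two, at -2.06 and 1.52, lie farthest from 0, and none passed after adjustment.

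The 8 arrays were on 1 slide and were scanned together. Both MHs and control SHPCs 1 and 2 lay in a set of 4 neighbouring arrays, and control SHPC 3 and the 3 samples with BM-MCs in the other set of 4, so transplantation and position largely coincide. Between 57.0% and 61.5% of spots were well above background, none was saturated, and with so few arrays the precision of each difference is limited by their number. The scanner file of control SHPC 2 ends after 20903 of 62976 features, and the value table that the authors deposited supplied its signals, while its marks were not used to filter probes.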

How the data were processed

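RNA was taken from laser-captured cells of 8 samples, 100 ng per sample was labelled with Cy3, and each was hybridised to a 1-colour Agilent array. Per the file headers and the submitters' processing notes, the authors deposited spot intensity as the processed signal of Agilent Feature Extraction 10.7, already background-subtracted and detrended, and a value table of the same signal with no scaling between arrays. Signals were read from that table for all 8 samples. They were set to log2 minus the 75th percentile of each array, outlier spots were left out, and spots of a probe were averaged. The deposited scanner marks, 0 or 1 and coded as other, gave the filter, which kept 23111 probes above background on at least 3 of 7 arrays. A gene was given by its brightest tested probe, which left 14536 genes.

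Groups came from the labels. The 2 SHPC groups were tested against each other in a fit of their 6 samples, and comparisons with MHs used all 8 (limma 3.58.1, R 4.3.3, Benjamini-Hochberg). The scripts were tested on simulated data. The 9 members, the wider list of 42 genes and the marker lists were chosen with earlier results of these data known. The rule for named genes was all members, the 4 list genes with the lowest p in each comparison, and the 3 genes most like the pair of members with the widest range of group means. The values of 1 gene that this rule names are not reported here. Probe names, sequences and positions come from the deposited scanner files. Alternatives covered scaling, background, filter, blocks, the methods' t-test, samples in the fit and leaving out each sample. Depth is not defined for arrays, and their number limits the precision.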

Additional observations from a re-analysis of the deposited data

Results flagged for a closer look

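In all, 3 readings of member probes outside the tests were above background on an array of MHs or of SHPCs with BM-MCs and above all 3 control SHPCs. The Bcl2l11 probes A_44_P508055 and A_44_P1088291 read -2.98 and -4.30 in SHPC with BM-MCs 3, where the highest control SHPC was at -7.24 and -7.78. The Bcl2l1 probe A_44_P1085814 read -5.74 in MH 2, where the highest control SHPC was at -6.58, and its twin of the same sequence was not well above background on that array. Each rests on 1 array, and its cause was not tested.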

How the results depend on the processing

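No member passed the adjusted threshold in any comparison or in the F test over the 3 groups under the alternatives run, the methods' unadjusted t-test aside. That test, on the same values, gave 1 member (Casp8, higher) for SHPCs with BM-MCs against control SHPCs, 3 (Bid higher, Bcl2l11 and Bcl2 lower) for MHs against control SHPCs, and 1 (Bcl2, higher) for SHPCs with BM-MCs against MHs, and 6, 6 and 4 of the other apoptosis genes. After Benjamini-Hochberg adjustment it gave 0 in each. For all genes, the share under an unadjusted p of 0.05 was taken with limma only, at 16.2%, 20.3% and 13.5%. The t-test of Bid rests on a standard deviation of 0.00338 between the 2 MHs, and the limma unadjusted p of Bid there was 0.211. Leaving out samples gave 0 to 1 of the other genes for SHPCs with BM-MCs against control SHPCs, the 1 being Dffb without control SHPC 3, against control readings within background.

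Of 537 member differences recomputed, 506 kept their direction and side of the threshold, 26 changed sign, and 5 passed in the unadjusted t-test alone. In SHPCs with BM-MCs against control SHPCs, scaling to the median gave Bcl2l11 -0.12 and Bax -0.10, quantile normalization gave Bcl2l11 -0.01, and normexp gave Bcl2l1 -0.01 and Bcl2l11 -0.02. Leaving out 1 sample there gave ranges of -0.02 to 0.55 for Bcl2l1, -0.08 to 0.04 for Mcl1, -0.05 to 0.02 for Bbc3 and -0.10 to 0.26 for Bax. In MHs against control SHPCs, Casp9 was 0.03 without scaling, 0.07 with normexp and -0.37 to 0.26 with 1 sample left out, Bbc3 was 0.02 without scaling, and Mcl1 was -0.02 by the mean of its probes. In SHPCs with BM-MCs against MHs, Casp8 was -0.09 with median scaling, -0.05 with normexp and -0.08 to 0.29 with 1 sample left out. Bbc3 was -0.15 with median scaling, -0.03 without scaling. A block for slide set put Bbc3 at -0.03 and Bax at 0.18. The causes were not tested. Where 1 MH was left out, the other was assumed to vary like the other groups.

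Deviations of same-numbered SHPC samples from their group means correlated at 0.13, 0.08 and 0.17, and those of different-numbered ones at -0.15 to 0.08. These deviations are tied to each other within a group, so the check did not decide whether the replicate numbers pair the samples. With the replicate number as a block, 0 members were called in each comparison, Casp8 stayed at 0.34 (limma adjusted p = 0.272), and no call changed. Signals below background on some arrays limit Bcl2l1 and Dffb.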
